A study of Homo sapiens with 4 samples.

Results

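The multidomain BCL2 family comprises the proteins that hold or open the outer mitochondrial membrane in apoptosis. The 8 genes described here were chosen by symbol, as the rows named BCL2, BCL2L1, BCL2L2, MCL1, BCL2A1, BAX, BAK1 and BOK, out of 23228 gene rows in the count tables. All 8 were present in each of the 4 libraries, and all 8 passed the filter on low counts. The RNA came from Daoy, an established cell line of human medulloblastoma. Lentiviral transduction had given cells that stably expressed a control shRNA (n = 2) or a PELP1 shRNA (n = 2). PELP1 works as a scaffold for coregulation of nuclear receptors and for ribosome maturation. All 4 libraries thus came from transduced cells, and neither the shRNA sequences, nor the number of shRNAs, nor whether clones or pools were used is given in the sources used here. The series title poses PELP1 as a regulator of medulloblastoma progression through NF-κB.

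In healthy and tumour cells the anti-apoptotic members BCL2, BCL-XL (from BCL2L1), BCL-W (from BCL2L2), MCL1 and A1 (from BCL2A1) bind and restrain the pro-apoptotic effectors BAX and BAK. BH3-only proteins such as BIM and PUMA occupy the groove of the anti-apoptotic proteins or activate the effectors, which then form pores and release cytochrome c. BOK resembles BAX and BAK in domain structure and has been described as acting with little restraint from the anti-apoptotic members. In the developing nervous system, from whose cerebellar progenitors some medulloblastomas arise, BAX is known to be needed for the death of many neurons.

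Library sizes ran from 24052542 to 29221640 counts in genes. PELP1 itself stood at 168.2 and 185.2 CPM (read counts after TMM scaling to a common library size) with the control shRNA. It stood at 55.6 and 49.7 CPM with the PELP1 shRNA, 29.8% of control (edgeR quasi-likelihood test, FDR = 1.54e-33). Of 14 markers of the granule lineage and neural progenitors, 11 reached 1 CPM in a group mean. Their summed level was 5778 to 5915 CPM with the control shRNA and 4169 to 4174 CPM with the PELP1 shRNA. Most of it was VIM, whose mean went from 5548 to 3894 CPM. The markers did not move together. Of 11 tested, 4 were called higher and 4 lower, VIM among the latter (edgeR FDR under 0.05). Over all genes tested, the shares were 28.6% and 29.5%. ATOH1, BARHL1 and NEUROD1, the defining transcription factors of granule cells, were at or near 0 in both groups (each at most 0.16 CPM in a group mean). Of 15 markers of other cell types, 5 reached 1 CPM. These were CD14, LAPTM5, PECAM1, KDR and HBB. The summed level was 12.6 to 13.9 and 4.72 to 7.62 CPM (control and PELP1 shRNA libraries) for 5 haematopoietic markers, 2.45 to 3.08 and 4.21 to 4.25 CPM for 3 endothelial markers, and at most 1.63 CPM for the epithelial, erythroid and hepatocyte markers. Most of the haematopoietic sum was LAPTM5 (means of 11.99 and 4.503 CPM), while CD14 stood at 1.032 and 1.289 CPM. The endothelial markers did not move together. PECAM1 was called higher (0.371 to 1.833 CPM, edgeR FDR = 5.26e-08) and CDH5 lower (0.741 to 0.278 CPM, edgeR FDR = 0.00701). KDR was not called (edgeR FDR = 0.192). ALB was listed at 0 in all libraries. The labels do not say whether the 2 libraries of a group came from separate cultures, and p-values thus reflect library-to-library spread that may be technical. In bulk RNA, fewer cells expressing a gene and less RNA per cell cannot be told apart.

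RefSeq promoter windows (GRCh38.p14, from 250 bases before to 50 after the start) were available for 6 of the 8 members, BCL2, BCL2L1, BCL2A1, BAX, BAK1 and BOK. They are shown because the series asks about NF-κB and because BCL2A1 and BCL2L1 were lower with the PELP1 shRNA. Each line below is a stretch of 24 bases on the strand of the gene, 5′ to 3′, with the motif in capitals. The names TATA box and GC box stand only for the letters TATAAA and GGGCGG on either strand. The printed TATAAA begins at −70 from the start in BCL2A1 and at −125 in BCL2L1.
BCL2A1, TATA box, chr15:79971252-79971275: gaaggatatTATAAAgtgatgcaa
BCL2L1, TATA box in the first of its 2 windows, chr20:31724074-31724097: aaatgtgatTATAAAtgttgattt
BCL2L1, GC box in the second window, chr20:31722859-31722882: gcggagcggCCGCCCtcgatccgg
BAX, GC box, chr19:48954814-48954837: cattttgcgGGGCGGccacgtgaa
BAK1, GC box, chr6:33580340-33580363: ggggaaagtGGGCGGgacatgctc
Both strands were searched for the letters TATAAA and GGGCGG, for the AP-1 letters TGANTCA, for the cAMP response element TGACGTCA and for the NF-κB consensus. TATAAA was found in the windows of BCL2A1 and BCL2L1 and in 11.5% of 35116 promoters of this length. A further match in the first BCL2L1 window, at −208, is not printed. GGGCGG was found in BCL2L1, BAX, BAK1 and BOK and in 45% of promoters. Its matches at 10 in BAX, −114 in BAK1 and −49 in BOK are not printed. The NF-κB consensus (5.91% of promoters), TGANTCA (7.71%) and TGACGTCA (1.85%) matched in 0 of the 6 members, which says only that these letters are not in these windows. A match is a description of the letters and not of binding.

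With the PELP1 shRNA, 3 anti-apoptotic genes were lower, 1 anti-apoptotic gene was higher, and the fifth did not pass the test. BCL2A1 fell to 23.4% of control, BCL2L1 to 68.2% and BCL2L2 to 69.6%, while BCL2 rose 1.24-fold. MCL1 and all 3 pro-apoptotic members (BAX, BAK1 and BOK) did not pass the threshold. In all, 4 of 8 members passed the false discovery rate (FDR) threshold of 0.05 in edgeR's quasi-likelihood test, with p-values adjusted over the 14972 genes tested. Of all genes tested, 58.1% passed, 28.6% as higher and 29.5% as lower, so the share of members called was near the background. Over all genes, 4276 calls were higher and 4424 lower, and with library size as the only scaling 5681 and 3305. The median log2 fold change was −0.07 over the members and 0.002 over all genes tested, and the median absolute log2 fold change was 0.21 and 0.26.

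**Figure D1:**
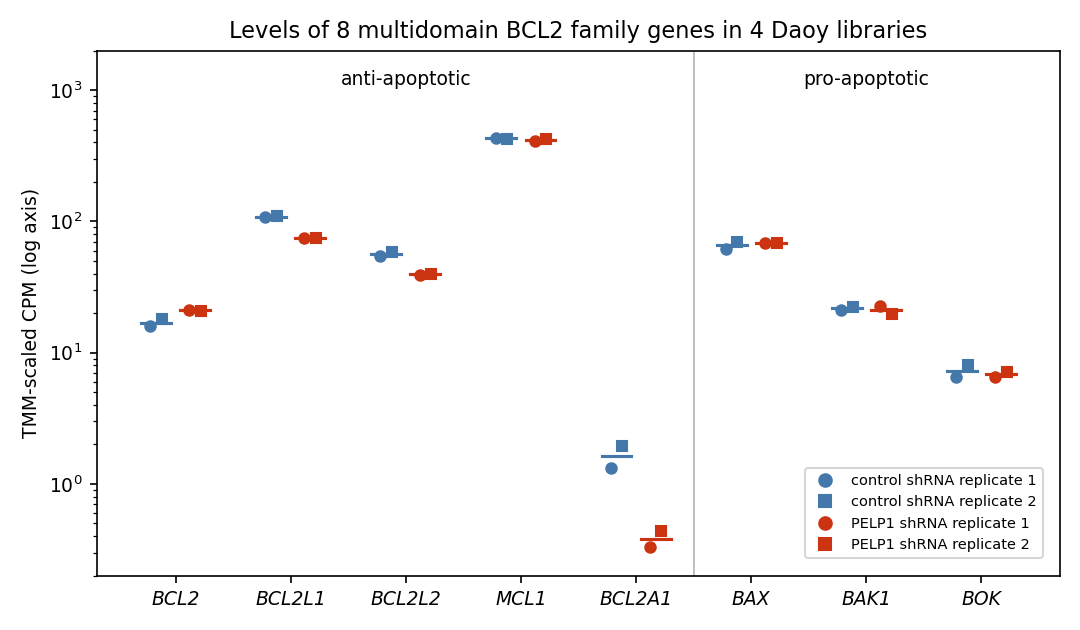
TMM-scaled CPM (log axis) of each member in each library, with circles for replicate 1, squares for replicate 2 and bars for group means. BCL2L1, BCL2L2 and BCL2A1 are lower in both PELP1 shRNA libraries than in both control libraries, BCL2 is higher, and the groups of MCL1, BAX, BAK1 and BOK overlap.

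BCL2A1 encodes A1 (BFL-1), an anti-apoptotic protein mostly studied in blood cells and a known target gene of NF-κB. In hg19 coordinates, as for all members, the gene is on the minus strand of chromosome 15 (80253234 to 80263538) and had the lowest counts of the members. Its read counts were 31 and 50 with the control shRNA, against 10 and 12 with the PELP1 shRNA. Those correspond to 1.33 and 1.94 CPM against 0.331 and 0.435 CPM, so both PELP1 shRNA values lay below both control values. The log2 fold change was −2.10 ± 0.35 (SE, n = 2 and 2 libraries), with an edgeR FDR of 6.33e-07. The 81 and 22 summed counts gave a control level 4.33-fold higher (95% counting interval 2.68 to 7.29, Clopper-Pearson, counting error only). It was the only member to change by at least 2-fold, as 3.71% of genes did in the lower direction. It was also the only one to pass a test against a 1.5-fold change (glmTreat, adjusted p = 0.00013), as 9.63% of all genes did. Among the haematopoietic markers, LAPTM5 moved in the same direction (from 11.99 ± 0.527 to 4.503 ± 1.08 CPM, SD, n = 2), while PTPRC, the pan-leukocyte marker, stood at 0.245 and 0.24 CPM. Their part in the result was not tested. The value of BCL2A1 without control shRNA replicate 2 was −1.79, and −2.34 without control shRNA replicate 1. Of its 731 windows of 50 bases, the read length, 48 occur exactly elsewhere on chromosome 15, and such reads would not have been counted.

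BCL2L1 encodes BCL-XL, the long-lived anti-apoptotic protein that restrains BAX and BAK, and a short pro-apoptotic splice form that gene-level counts cannot separate. The gene lies on the minus strand of chromosome 20 (30252255 to 30311792). Its level was 107.8 and 110.2 CPM with the control shRNA and 74.3 and 74.4 CPM with the PELP1 shRNA. The libraries of each group agreed closely and the groups did not overlap. The log2 fold change was −0.55 ± 0.05 (SE), with a 95% interval from −0.648 to −0.457 (edgeR FDR = 7.85e-16). Of the 2574 bases of its main transcript, 945 lie antisense to the long noncoding gene ABALON, which has no counts analysed here.

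BCL2L2 encodes BCL-W, a close relative of BCL-XL with a known role in neurons and spermatogenesis. It lies on the plus strand of chromosome 14 (23767999 to 23780960). It had 54.6 and 58.8 CPM in the control libraries and 39.3 and 39.8 CPM in the PELP1 shRNA libraries, again without overlap. The log2 fold change of −0.52 ± 0.06 (SE, edgeR FDR = 2.21e-11) was close to that of BCL2L1. The ratio of BCL2L2 to BCL2L1 counts was accordingly 0.507 and 0.533 in control cells and 0.529 and 0.535 in PELP1 shRNA cells. BCL2L2 shares 590 of the 3526 bases of its main transcript with the read-through gene BCL2L2-PABPN1. That gene is listed at 0 counts in all 4 libraries, and HTSeq in its default mode sets reads that lie in both genes aside as ambiguous.

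BCL2 encodes the founding anti-apoptotic member, first found at a lymphoma translocation. The gene is on the minus strand of chromosome 18 (60790579 to 60987361). It was the only member that rose, from 16.0 and 17.9 CPM with the control shRNA to 21.3 and 20.9 CPM with the PELP1 shRNA. The groups did not overlap, and the log2 fold change was 0.32 ± 0.09 (SE, 95% interval 0.144 to 0.487, edgeR FDR = 0.00128). Without control shRNA replicate 1 the value was 0.23 with an adjusted p of 0.0462. Its call was lost when a biological variation of 10% was assumed (adjusted p = 0.12).

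MCL1 encodes a short-lived anti-apoptotic protein whose level is known to be set largely by its turnover. The gene lies on the minus strand of chromosome 1 (150533371 to 150552214) and was the most abundant member in CPM. It had 431.8 and 425.9 CPM in the control libraries and 411.1 and 427.4 CPM in the PELP1 shRNA libraries. The groups overlapped, and the log2 fold change was −0.03 ± 0.04 (SE, edgeR FDR = 0.442). The 95% interval of the fold ran from 0.931 to 1.03, so a fall as large as that of BCL2L1 lay outside it. The sign of the estimate turned with upper-quartile factors (0.0203) and with library size alone (0.0571), without passing the threshold.

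Among the pro-apoptotic effectors, BAX moves from the cytosol into the mitochondrial membrane on activation. The gene is on the plus strand of chromosome 19 (49458072 to 49465055). It had 62.1 and 70.0 CPM with the control shRNA and 68.1 and 68.0 CPM with the PELP1 shRNA. Both PELP1 shRNA libraries lay between the 2 control libraries. The log2 fold change was 0.04 ± 0.05 (SE, edgeR FDR = 0.534), and the 95% interval of the fold was 0.954 to 1.11. With library size alone, BAX was called higher (0.13, adjusted p = 0.0303), and without control shRNA replicate 1 the sign turned (−0.04).

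BAK1 encodes BAK, the effector that resides in the mitochondrial membrane. It lies on the minus strand of chromosome 6 (33540324 to 33548070). The values were 21.1 and 22.4 CPM in the control libraries and 22.7 and 19.6 CPM in the PELP1 shRNA libraries, which overlapped (log2 fold change −0.04 ± 0.08, SE, edgeR FDR = 0.732). The 95% interval of the fold ran from 0.869 to 1.09, and the sign turned with upper-quartile factors (0.02) and with library size alone (0.05). BAK1 is the member most exposed to a near-identical copy. Of its 2121 windows of 50 bases, 1032 (48.7%) occur exactly on chromosome 20. Its counts are therefore partial and its level is uncertain.

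BOK lies on the plus strand of chromosome 2 (242490839 to 242513546). It was the least abundant pro-apoptotic member, at 6.55 and 8.08 CPM with the control shRNA and 6.50 and 7.18 CPM with the PELP1 shRNA. The groups overlapped, and the log2 fold change was −0.10 ± 0.13 (SE, edgeR FDR = 0.506; 95% interval of the fold 0.779 to 1.11). The antisense gene BOK-AS1, which covers 201 of the 2626 bases of the BOK transcript, had at most 1 count in any library.

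**Figure D2:**
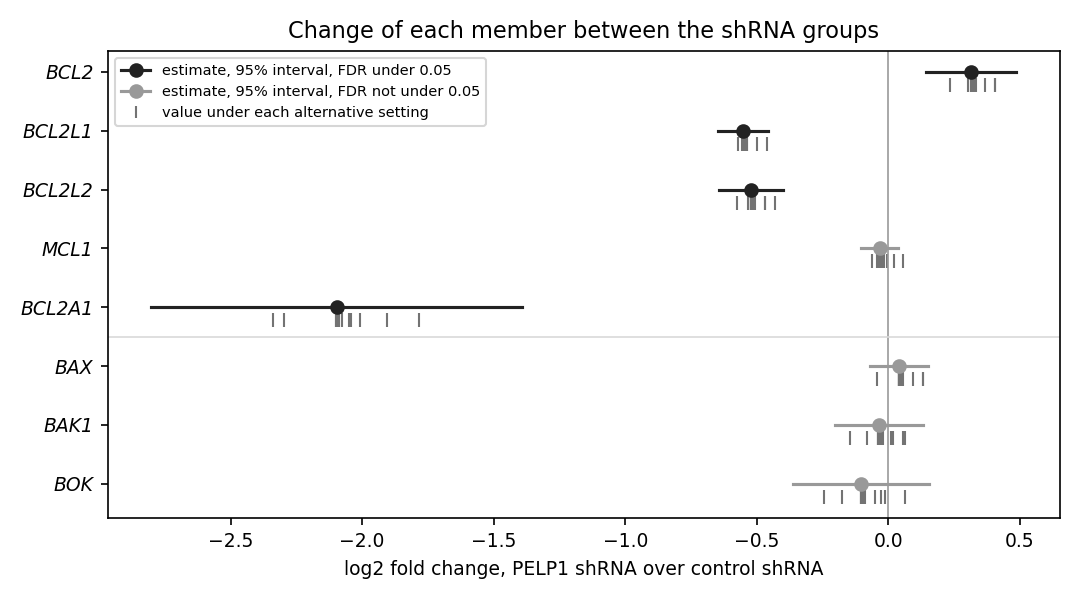
Log2 fold change of each member, PELP1 shRNA over control shRNA, with its 95% interval in dark for members past the FDR threshold and in grey for the others. Ticks under each point give the value under each alternative setting. The estimates of BCL2A1 (−2.10), BCL2L1 (−0.55) and BCL2L2 (−0.52) lie below 0 and that of BCL2 (0.32) above it under every setting drawn.

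The groups did not overlap in 4 of the 8 members, against 77.7% of all genes tested. Those 4 members were the ones that passed the threshold.

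Levels of different members were compared as CPM per kilobase of the main transcript, using GENCODE models lifted to hg19. On this scale the control order of group means was MCL1 (108.6), BAX (83.1), BCL2L1 (42.4), BCL2L2 (16.1), BAK1 (10.0), BOK (2.79), BCL2 (2.46) and BCL2A1 (2.10). From MCL1 down to BOK the control libraries of neighbours did not overlap, whereas those of BOK (2.49 and 3.08), BCL2 (2.32 and 2.60) and BCL2A1 (1.70 and 2.49) did for each neighbouring pair. The place of BAK1 is uncertain, because its counts are partial (48.7% of its windows also occur on chromosome 20). In the PELP1 shRNA libraries BCL2 (3.10 and 3.04) stood above BOK (2.47 and 2.74), and BCL2A1 (0.425 and 0.558) was far below both. The other ranks on this scale were the same as in the control. The places of BAX, BCL2 and BCL2A1 depend on the transcript model. For BAX, the main transcript has 795 bases and all annotated exons together 2587, and for BCL2 the lengths are 6881 and 12612 bases. Per kilobase of all exon bases, the control mean of BAX was 25.53 and that of BCL2L1 25.97. On that scale BCL2 did not pass BOK with the PELP1 shRNA (means of 1.67 and 2.55), and in control cells BCL2 (1.34) stood below BCL2A1 (1.64).

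The anti-apoptotic members made up 65.4% and 62.9% of the summed length-scaled counts of the family with the control shRNA, and 59.9% and 61.0% with the PELP1 shRNA. The means were 64.2% ± 1.74 and 60.5% ± 0.715 (SD, n = 2 each). The difference of −3.73 percentage points had an exact two-sided permutation p of 0.33, the smallest that 2 libraries against 2 can give. MCL1 alone took 41.9% and 39.4% of the family with the control shRNA and 42.3% and 43.4% with the PELP1 shRNA. Leaving MCL1 out, which takes the largest share, widened the difference of the anti-apoptotic share to −8.86 percentage points, from 39.7% to 30.8%. On raw counts, without scaling by length, it was −1.35 percentage points. The level of the share also depends on the scale. It was 86.6% and 85.2% on raw counts (means, control and PELP1 shRNA). Per kilobase of all exon bases it was 74.2% and 71.3%. The partial counts of BAK1, a pro-apoptotic member, add to this uncertainty.

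Ratios between 2 members in the same library do not depend on how libraries are scaled. They are ratios of reads, so their level, unlike their change between groups, depends on transcript length. Per kilobase of main transcript, BAX stood above BCL2L1, at 83.1 against 42.4 CPM with the control shRNA. With the PELP1 shRNA the means were 85.6 against 28.9 CPM. Per kilobase of all exon bases the control means were close (25.53 and 25.97 CPM). For each read of BAX there were 1.74 and 1.57 reads of BCL2L1 in control cells and 1.09 in each PELP1 shRNA library. The mean log2 ratio was thus 0.725 with the control shRNA and 0.127 with the PELP1 shRNA, a difference of −0.598, with no overlap. The ratio of BCL2L1 to MCL1 was also lower, at 0.25 and 0.259 with the control shRNA and 0.181 and 0.174 with the PELP1 shRNA. The ratio of BCL2 to BAX was 0.257 and 0.256 with the control shRNA and 0.313 and 0.307 with the PELP1 shRNA, a log2 difference of 0.273. The ratios of MCL1 to BAK1 (20.5 and 19.0 against 18.1 and 21.8), of BAX to BAK1 (2.95 and 3.12 against 3 and 3.47) and of BCL2L2 to BCL2L1 overlapped between groups. The level of each ratio to BAK1 is uncertain, because BAK1 counts are partial (48.7% of its windows also occur on chromosome 20). Of the 6 ratios computed, the first 3 had an exact permutation p of 0.33, again the smallest possible, and 0.667 after Benjamini-Hochberg adjustment.

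**Figure D3:**
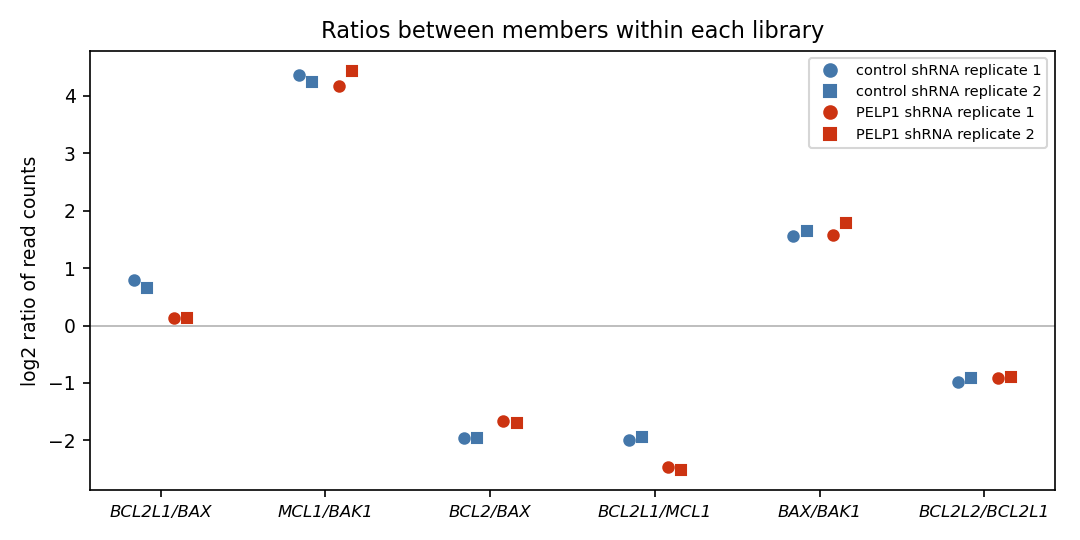
Log2 ratio of the read counts of 2 members within each library, for 6 pairs, with circles for replicate 1 and squares for replicate 2. The BCL2L1/BAX and BCL2L1/MCL1 ratios are lower in both PELP1 shRNA libraries, the BCL2/BAX ratio is higher, and the other 3 pairs overlap.

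Genes that act with the family were described as 6 lists by the same test, which called 28.6% of all genes tested higher and 29.5% lower. These lists, like the members, were chosen with earlier results of these data known, so their counts are a description only. Among 7 BH3-only genes with enough counts, 5 were higher and 1 was lower, with a median log2 fold change of 0.26. BBC3, which encodes PUMA, rose from 1.39 ± 0.04 to 2.79 ± 0.36 CPM (SD, n = 2; FDR = 0.000121, edgeR). BCL2L11, which encodes BIM, rose from 10.5 ± 0.1 to 19.5 ± 0.66 CPM (SD, n = 2; FDR = 1.39e-12, edgeR). BMF rose from 20.04 ± 1.66 to 35.3 ± 1.08 CPM (SD, n = 2). PMAIP1, which encodes NOXA, a BH3-only protein known for its preference for MCL1 and A1, was the 1 that fell (45.8 to 28.3 CPM; log2 fold change −0.69 ± 0.07, SE). It was named after its values were seen. HRK had at most 4 counts in any library and was not tested.

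The list of other BCL2-like and BH3-containing genes held 7 tested genes, of which 0 were higher and 1 was lower, with all values between −0.13 and 0.08 on the log2 scale. At an unadjusted p under 0.05 edgeR had 0 higher, and DESeq2 and limma-voom also called 0, while upper-quartile factors called 2 higher and library size alone 3. BNIP2, the 1 that fell, went from 92.5 to 85.5 CPM (edgeR FDR = 0.0418), a call that was lost with DESeq2 (adjusted p = 0.137) and without control shRNA replicate 1 (adjusted p = 0.393), PELP1 shRNA replicate 1 (0.232) or PELP1 shRNA replicate 2 (0.0814). BCL2L10, a further multidomain relative, showed 1 and 2 counts with the control shRNA and was listed at 0 in both PELP1 shRNA libraries.

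Of 18 mitochondrial partners and regulators of BAX and BAK, 7 were higher, 4 were lower and 7 did not pass (median 0.04), with 2 lower when PELP1 shRNA replicate 2 was left out. TPT1, a translation-linked protein reported to bind MCL1 and BCL-XL, rose 1.55-fold to 935 CPM, and TMBIM6 (BAX inhibitor 1) rose 1.39-fold to 1097 CPM. HSPA1A rose 1.29-fold, and its near-identical copy HSPA1B makes that value uncertain, as do the many processed copies of TPT1. VDAC2, the channel that holds BAK at the membrane, stood at 26.6 and 21.6 CPM (log2 fold change −0.30 ± 0.08, SE, edgeR FDR = 0.0011). The fall was not particular to it. VDAC3 stood at 137.9 and 108.4 CPM (−0.35 ± 0.05, SE, edgeR FDR = 9.58e-10), while VDAC1 did not pass (edgeR FDR = 0.176). These VDAC genes were named after their values were seen.

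Downstream, 5 of 11 apoptosome and caspase genes were higher, 2 were lower and 4 did not pass (median 0.17). The initiator caspase gene CASP9 rose 1.31-fold (FDR = 0.000469, edgeR), while CASP2 fell to 79.8% of control. The count of higher genes was 2 with DESeq2 or without PELP1 shRNA replicate 2 and 3 without control shRNA replicate 1 or replicate 2, and that of lower genes was 1 without control shRNA replicate 1. Of 9 inhibitors of apoptosis and their antagonists, 3 were higher and 4 lower. BIRC3 (cIAP2), a known NF-κB target gene, fell to 69.3% of control, from 74.3 ± 4.07 to 51.5 ± 0.454 CPM (SD, n = 2), and BIRC6, a very large ubiquitin ligase of the same family, fell to 73.6%. SEPT4, whose mitochondrial form ARTS antagonises XIAP, rose 2.5-fold from 1.43 ± 0.02 CPM (SD, n = 2). The other called genes were BIRC5 (223 to 271.8 CPM) and XAF1 (10.1 to 11.9 CPM), both higher. BIRC2 (125.5 to 111.1 CPM) and HTRA2 (42.4 to 33.9 CPM) were lower. BIRC5, XAF1, BIRC2 and HTRA2 were named after their values were seen. The list mixes inhibitors with their antagonists, and neither kind moved in a single direction.

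Of 12 regulators of MCL1 turnover, 6 were higher, 4 lower and 2 did not pass (median 0.12), with 2 lower when control shRNA replicate 1 was left out and 1 lower with library size alone. FBXW7 and BTRC, substrate receptors of ubiquitin ligases that recognise phosphorylated MCL1, rose 1.44-fold and 1.28-fold (edgeR FDR = 1.38e-05 and 1.49e-05). The MCL1 ligase gene TRIM17 stood at 1.47 and 2.19 CPM (edgeR FDR = 0.0369), a call that was lost when any 1 library was left out. Of all genes tested, 58.1% passed, so no list is called particular from these counts. Fewer genes of each of the 6 lists were called with an assumed biological variation of 20% than in the main test.

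**Figure D4:**
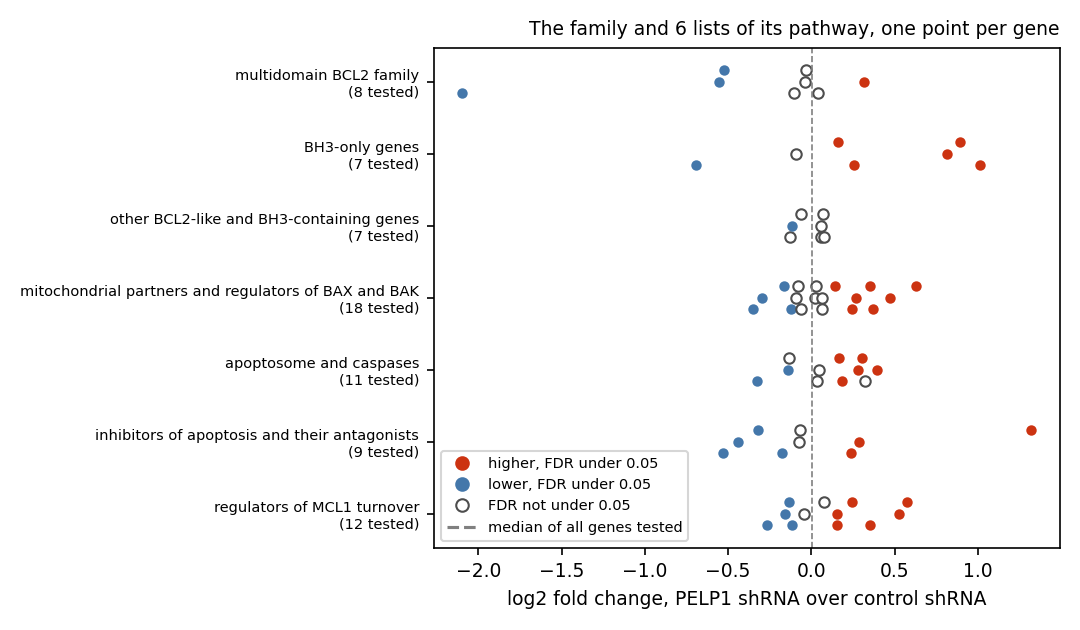
Log2 fold change, PELP1 shRNA over control shRNA, of the family and of the tested genes of 6 pathway lists, with 1 point per gene. Red points passed the FDR threshold as higher, blue as lower, and open points did not pass. The family has 1 higher and 3 lower genes, with BCL2A1 farthest to the left, and the BH3-only list has 5 higher and 1 lower. Over all genes tested, 28.6% were called higher and 29.5% lower.

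The genes whose profile was most like that of BCL2A1 were found by Euclidean distance between centred log2(CPM + 0.5) values over the 4 libraries, among 13615 genes with a mean of at least 1 CPM. PEAR1 was nearest (distance 0.166), with 35 and 57 counts in control cells against 9 and 14. ELMO3 was next (0.168), with 115 and 160 against 66 and 65 counts. Within a distance of 0.5 there were 301 genes, so with 4 libraries this profile was shared by many. ELMO3 stood at −1.30 on the log2 scale and BCL2A1 at −2.10, since the added 0.5 CPM compresses the profile of a gene as low as BCL2A1.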

How the data were processed

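Per the labels, single-end sequencing of total RNA gave reads of 50 bp. TopHat2 2.0.8b (hg19) and HTSeq made the table, per the submitters' processing notes. For HTSeq, neither version, strand setting nor annotation is given. The authors deposited raw counts, with no normalisation. The 5 rows that name no gene were left out (30.82%, 30.71%, 29.38% and 29.57% of each file total were alignments that were not unique). Groups came from the sample titles. edgeR 4.0.16 in R 4.3.3 (TMM, filterByExpr, robust quasi-likelihood F test, Benjamini-Hochberg FDR over 14972 genes) gave two-sided tests. Standard errors and 95% intervals follow from the F statistic. The biological coefficient of variation was 2.99%. DESeq2 1.42.0, limma-voom 3.58.1, other scalings, filters, left-out libraries and assumed variations were alternatives. The fit was tested on simulated data. Exact windows of 50 bases were counted over GRCh37, the same assembly as hg19. The members and lists were chosen with earlier results of these data known. Named genes were the 8 members, PELP1 and, from each list, at most 3 genes past the FDR threshold with the largest change and no overlap, plus the 2 genes nearest in profile to a member that changed by at least 2-fold. TCTP and ARTS are other names of TPT1 and SEPT4, and BCL2L16 and DUB3 were not analysed here.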

Additional observations from a re-analysis of the deposited data

How the results depend on the processing

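BCL2A1, BCL2L1, BCL2L2, BCL2 and PELP1 kept their direction under all alternatives that gave a value. BCL2A1 had none under the filter of 5 CPM. With an assumed biological variation of 10%, BCL2 missed the threshold (0.3165, adjusted p = 0.12). At 20%, BCL2 (0.317, adjusted p = 0.703), BCL2L1 (−0.5524, adjusted p = 0.306) and BCL2L2 (−0.5208, adjusted p = 0.36) missed it. Tested against a 1.5-fold change, BCL2 (0.3152), BCL2L1 (−0.5526) and BCL2L2 (−0.522) missed it with an adjusted p of 1. The labels do not say whether the replicate numbers pair the libraries. The correlation of deviations was −0.158, which with 2 libraries per group is the same for both numbers and cannot decide it. With the replicate block the changes were −2.0754 for BCL2A1, −0.5523 for BCL2L1, −0.5201 for BCL2L2, 0.3177 for BCL2, −0.0329 for MCL1, 0.0449 for BAX, −0.0395 for BAK1, −0.0948 for BOK and −1.746 for PELP1, with 4010 genes higher and 4151 lower, and 2 of the MCL1 regulators and 0 of the other BCL2-like genes called lower. A crossed block, chosen after the data were seen, called 4565 genes higher and 4719 lower.

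The sign turned for members that passed no threshold. MCL1 stood at 0.0203 with upper-quartile factors and 0.0571 with library size alone, and BAK1 at 0.0169 and 0.0541. Library size alone called BAX higher (0.1317, adjusted p = 0.0303). With 1 library left out, BAX ranged from −0.0427 to 0.1331, BAK1 from −0.1469 to 0.0621 and BOK from −0.2447 to 0.0614. The log2 ratio difference ranged from −0.126 to 0.142 for MCL1/BAK1, from −0.0184 to 0.191 for BAX/BAK1 and from −0.00377 to 0.0688 for BCL2L2/BCL2L1. The cause was not tested for these. The difference of the anti-apoptotic share was −1.35 on raw counts, −8.86 without MCL1 and −2.97 per kilobase of all exon bases (added after the data were seen).

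Over the whole table, higher and lower calls were 2187 and 2176 at 10% variation, 685 and 640 at 20%, and 709 and 733 against a 1.5-fold change. Members called were then 0 and 3, 0 and 1, and 0 and 1. BH3-only genes called were 3 and 1 at 10%, and 2 and 0 under the other settings. Inhibitors of apoptosis were 1 and 2, then 1 and 0. Partners of BAX and BAK were 3 and 0, regulators of MCL1 turnover 1 and 0, and caspases 0 and 0 at 10%, and each of these was 0 and 0 under the other settings. Library size alone called 2 members higher, 3 other BCL2-like genes higher and 0 lower, 2 partners, 1 caspase gene and 1 MCL1 regulator lower. Upper-quartile factors called 2 other BCL2-like genes higher and 0 lower, and 2 MCL1 regulators lower. DESeq2 called 2 caspase genes higher and 2 MCL1 regulators lower. The lower count of the other BCL2-like genes was 0 with DESeq2, no low-count filter and the filter of 5 CPM. Leaving out 1 library, it ranged from 0 to 1, higher caspase genes from 2 to 5, lower ones from 1 to 2, lower partners from 2 to 4 and lower MCL1 regulators from 2 to 4. Depth limits BCL2A1, with 22 counts in the PELP1 shRNA libraries together.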
